A study of Mus musculus with 8 samples.

Results

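The genes described here are 44 genes of DNA replication and of the synthesis of its nucleotides, read in mouse oligodendrocyte precursor cells (OPCs) as these cells left the growth state and matured towards oligodendrocytes (OLs). They were chosen by function, as entries whose symbol equals that of a listed gene, and each of the 44 matched 1 of the 23427 entries measured. For 27 of them the known work lies mainly in S phase, the phase of the cell cycle in which DNA is copied, and 17 are also used when damaged DNA is repaired. The samples were primary OPCs of wild-type C57BL/6J mice, taken per the methods from cortex (3 pups at postnatal day 7) by capture on an antibody against PDGFRα, after panning steps that take away microglia and endothelial cells. Day 0 cells were in growth medium, and Day 1, Day 2 and Day 3 cells had spent that many days in differentiation medium, without growth factors and with the thyroid hormone T3. Each day had 2 replicates, which makes 8 libraries. The labels name a serum medium for growth where the methods name a defined one. The methods call the 2 replicates independent cultures of OPCs, but neither they nor the labels say which pups or cultures gave which library. The p-values thus measure only the spread between these libraries.

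DNA replication starts at origins, where the origin recognition complex with CDC6 and CDT1 loads the ring of MCM2 to MCM7, and CDC45 with the GINS complex turns that ring into an active helicase. Polymerase alpha with primase lays down primers, polymerases delta and epsilon extend them on the sliding clamp PCNA, and ribonucleotide reductase and thymidine enzymes supply the deoxynucleotides. Many of these genes are transcribed under E2F factors at the entry into S phase, and OPCs are a dividing population of the postnatal brain that stops dividing as it matures.

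Values are FPKM, fragments scaled to the length of the transcript and to the mapped fragments of the library, so that levels of different genes can be set side by side per length. Changes are log2 fold changes of FPKM + 1 from limma, fitted over 12208 genes with Benjamini-Hochberg adjustment and called at an adjusted p under 0.05. All 44 members passed the filter on low values, *Cdc6*, *Mcm10* and *Gins3* only through their Day 0 libraries. In these genes every later library was under 1 FPKM, so a level under Day 0 was fixed by the filter. Depth, estimated from the steps between low values, was 960000 to 1530000 fragments per library and lowest on Day 3. The 6 proliferation markers, among them *Mki67*, summed to 578 to 747 FPKM on Day 0, 6.17 to 36.7 on Day 1, 4.64 to 7.60 on Day 2 and 16.9 to 21.8 on Day 3. The 4 OPC markers fell from 1000 to 1030 FPKM to 162 to 261 on Day 3 and the 5 OL markers rose from 705 to 1010 FPKM to 10200 to 14900, with all 4 called lower and all 5 called higher. *Gpr17*, 1 of the 4, was first called higher on Day 1, from a mean of 256 FPKM to 451 (limma, 0.82, adjusted p = 0.0401). By limma *Pdgfra* was called lower in replicate 2 than in replicate 1 (adjusted p = 0.0461) and *Mag* higher (0.0425). All 6 proliferation markers were lower in replicate 2 (median -0.74), none of them called. The 7 astrocyte markers stood apart by replicate: their sum was 120 and 354 FPKM on Day 0, against 148 and 952 on Day 3, and 5 of the 7 were called higher in replicate 2. By limma none was called between Day 0 and Day 3 (0 also at an unadjusted p under 0.05), but with the replicate number as a block *Gfap* and *Aqp4* were called higher on Day 3 (adjusted p = 0.000126 and 0.000735, against 0.457 and 0.545). Of the 6 neuron markers *Tubb3* was called higher on Day 3, from 60.2 and 20.8 FPKM to 231 and 113, and *Nefl* lower, from a mean of 2.81 FPKM to 0.751. *Snap25*, *Syt1* and *Stmn2* stayed under 10 FPKM and *Rbfox3* at or near 0 in every library. Microglia, endothelial and mural or fibroblast markers, each list taken alone, summed to at most 3.31 FPKM in any library. The part of astrocyte and neuron RNA in the results below was not tested.

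The replication genes fell together and within the first day. Of the 44 members, 41 were lower on Day 3 than on Day 0, against 26.3% of all genes tested, and none was higher, against 12% of all genes. At an unadjusted p under 0.05 limma gave 43 lower and 0 higher in the same comparison. Of the 12208 genes tested, 4075 were lower and 1789 higher at that cut. On Day 1 already 41 members were lower than on Day 0, against 7.56% of all genes. The summed FPKM of the members was 1621 and 1507 on Day 0, 299.9 and 247 on Day 1, 278 and 247 by Day 2, and 274 and 304 on Day 3. The later libraries thus lay in 1 narrow band, far under both Day 0 libraries. Between Day 1 and Day 2 only *Gins2* was called lower, against 1.73% of all genes, and between Day 2 and Day 3 no member was called in either direction, against 0.0491% of all genes lower and 0.246% higher. In that last comparison limma gave an unadjusted p under 0.05 for *Gins1* downwards and for *Mcm3*, *Mcm5*, *Gins2*, *Rpa1* and *Rrm2* upwards. The same cut gave 924 lower and 849 higher among the 12208 genes tested. In bulk RNA, fewer replicating cells and less replication RNA per cell cannot be told apart.

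The median member changed by -2.50 on the log2 scale from Day 0 to Day 3, where the median of all genes tested changed by -0.31. With median ratio scaling, which brings the median of all genes to -0.04, the median member changed by -2.28 and 40 members were lower. Both Day 1 libraries lay under both Day 0 libraries for all 44 members, against 33.4% of all genes, and both Day 3 libraries did so for 43, against 48.6%. *Gins4* was the exception. For *Cdc6*, *Mcm10* and *Gins3*, which passed the filter only through Day 0, both orders were fixed in advance. Their part in these counts and in those of members called lower gives no independent support. Members at 10 FPKM or more numbered 40 in each Day 0 library and 8 to 11 in each later library, and those under 1 FPKM numbered 0 on Day 0, then 7 to 15 later.

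**Figure D1:**
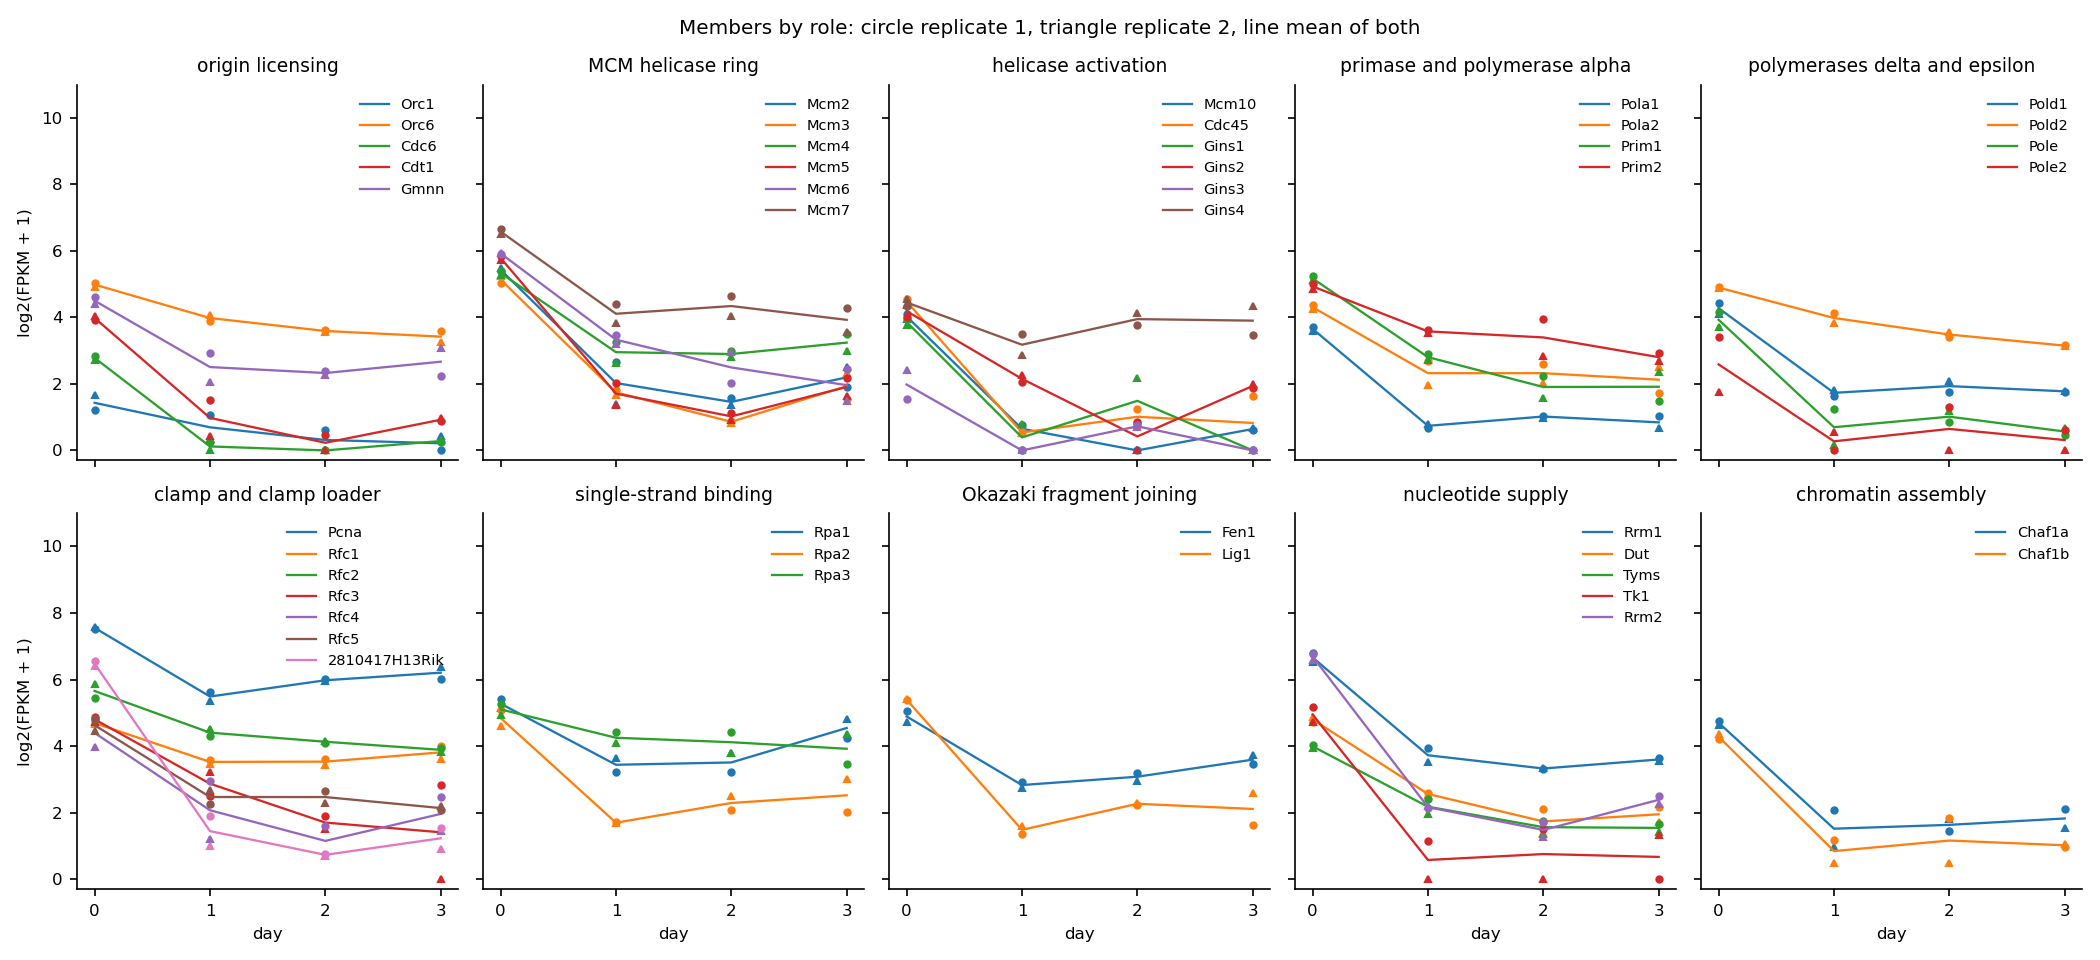
Level of every member in every library, as log2(FPKM + 1) against day, in 10 panels by role; circles are replicate 1, triangles replicate 2 and lines the mean of both. Nearly all lines drop between Day 0 and Day 1 and run flat afterwards, with summed FPKM of 1621 and 1507 on Day 0, then 247 to 304 later.

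The bases before the start of these genes were searched for 3 motifs on both strands, to see which letters the promoters of genes that fell together share. The windows are those of RefSeq on GRCm38.p6, 250 bases before to 50 after the start, and 36 of the 44 members had one. E2F motifs were searched as TTTGGCGC, TTTCCCGC, TTTGCCGC or TTTCGCGC, the CCAAT box as CCAAT, and the cell cycle homology region (CHR) as TTTGAA or TTCGAA. An E2F motif stood in 13 of the 36 windows (36.1%), in 4.37% of the windows of genes tested and in 7.18% of those of genes lower on Day 3 than on Day 0. Among the S phase genes it was 10 of 21 windows (47.6%), and among those also used in repair 3 of 15 (20.0%). CCAAT stood in 63.9% of the members' windows and 39.6% of those of genes tested, and a CHR in 16.7% and 12.8%. The E2F motifs that lie wholly before the RefSeq start are shown because they are the shared letters behind these counts, and those of *Orc1*, *Cdc6*, *Mcm7*, *Gins3* and *Rfc3* lie within the longer gene span of GENCODE M21. Each is printed on the strand of its gene with the matched bases in capitals, and a match may read on either strand. In *Mcm5* and in the first stretch of *Mcm6* the capitals hold 2 matches that overlap, 1 on each strand.
Orc1, chr4:108579416-108579445, plus strand: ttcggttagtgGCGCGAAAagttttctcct
Cdc6, chr11:98908002-98908031, plus strand: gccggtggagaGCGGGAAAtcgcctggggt
Mcm5, chr8:75109347-75109376, plus strand: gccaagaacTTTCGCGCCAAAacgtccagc
Mcm6, chr1:128359795-128359824, minus strand: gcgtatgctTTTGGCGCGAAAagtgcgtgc
Mcm6, chr1:128359734-128359763, minus strand: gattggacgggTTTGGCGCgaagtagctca
Mcm7, chr5:138172030-138172059, minus strand: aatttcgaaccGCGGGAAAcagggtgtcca
Gins3, chr8:95633507-95633536, plus strand: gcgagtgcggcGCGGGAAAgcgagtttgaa
Pola1, chrX:93632275-93632304, minus strand: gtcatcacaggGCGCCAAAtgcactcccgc
Rfc3, chr5:151651209-151651229, minus strand: acgtcgcacgcTTTCGCGCtc

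The matches in *Cdt1*, *Mcm3*, *Pold1*, *Pole2* and *2810417H13Rik* lay across or after the RefSeq start and are not printed. The same holds for a further match each in *Mcm7* and *Rfc3*. Members with a match changed by a median of -2.81 (13 genes) and members with a window but no match by -2.49 (23 genes), and the ranges of both overlapped, from -5.25 to -1.22 and from -4.31 to -0.73. *Rrm2*, *Tk1* and *Lig1*, all with large falls, had no match to these letters in the window.

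Among the origin licensing genes, 4 of 5 were lower on Day 3. *Cdt1*, which loads the MCM ring, had the largest fall of the role on log2(FPKM + 1), while *Cdc6* had the larger one as a share of Day 0 (3.68% kept on Day 3, against 6.06%) and with a pseudocount of 0.1. It read 14.3 and 15.3 FPKM on Day 0, 1.86 and 0.357 on Day 1, 0.375 and 0 by Day 2, and 0.837 and 0.953 on Day 3. Every later library was under 2 FPKM, and the log2 change to Day 3 was -3.06 ± 0.41 (SE, adjusted p = 0.00081). *Cdc6*, its partner in loading, fell from 6.19 and 5.57 FPKM to 0.202 and 0.230 on Day 3, with 1 fragment in each Day 3 library and 0 in both Day 2 libraries, so that its Day 2 level was at least 22.8-fold lower than that of Day 0 at a floor of 3 fragments over the day. *Gmnn*, which encodes the CDT1 inhibitor geminin, and *Orc6* kept 25.9% and 31.8% of their Day 0 means.

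*Orc1*, the cell cycle-regulated subunit of the origin recognition complex, was the member at the lowest level on Day 0 and was not called. It read 1.30 and 2.16 FPKM on Day 0, 1.08 and 0.260 on Day 1, 0.545 and 0 by Day 2, and 0 and 0.346 on Day 3. These values rest on 14 fragments over both Day 0 libraries and 1 over both Day 3 libraries, and the difference of -1.22 ± 0.42 had an adjusted p of 0.0518, which became 0.0408 with no filter on low values and 0.0349 without a trend in eBayes. Its partner *Orc2*, a subunit that cells keep on chromatin through the cycle, had 22.3 and 16.5 FPKM on Day 0, against 18.5 and 16.5 on Day 3 (-0.13 ± 0.22, adjusted p = 0.679).

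All 6 subunits of the MCM ring were lower on Day 3. *Mcm6* fell the most on log2(FPKM + 1), from 59.5 and 59.8 FPKM on Day 0 to 10.1 and 8.09 on Day 1, 3.11 and 6.73 by Day 2, and 4.42 and 1.80 on Day 3 (-3.96 ± 0.38, adjusted p = 0.000202). *Mcm4* fell the least, from 41.0 and 37.7 FPKM to 8.63 and 5.23, 6.86 and 6.07, and 10.2 and 6.98 on the following days (-2.09 ± 0.27, adjusted p = 0.000731). *Mcm2* read 40.8 and 43.5 FPKM on Day 0, 5.32 and 1.62 on Day 1, 1.95 and 1.56 by Day 2, and 2.72 and 4.64 on Day 3 (-3.23 ± 0.42, adjusted p = 0.000695). The ring holds 1 copy of each subunit, and on Day 0 their mean levels lay within 2.76-fold of each other, from 34.3 FPKM (*Mcm3*) to 94.7 (*Mcm7*). That ratio was 7.05 on Day 1, 24.1 on Day 2 and 5.21 on Day 3, with *Mcm7* highest each day. The lowest subunit on Day 2 was *Mcm3*, at 0.817 FPKM from 3 fragments in each library, so the Day 2 ratio is uncertain. *Mcm3*, *Mcm5*, *Mcm6* and *Mcm7* kept 8.58%, 5.18%, 5.21% and 15.4% of their Day 0 means on Day 3. The log2 change of *Mcm5* was -3.88 ± 0.32, close to that of *Mcm6*. Exons of *Mcm7* overlap *Cops6* and *Ap4m1* on the opposite strand by 64 and 321 bases, and whether fragments were counted by strand is not given in the sources used here.

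The genes that activate the helicase ranged from listed at 0 on Day 3 to the smallest change of all members, and 5 of the 6 were called lower. *Gins1* read 14.4 and 12.7 FPKM on Day 0, 0 and 0.719 on Day 1, 0.755 and 3.50 by Day 2, and is listed at 0 in both Day 3 libraries (-3.86 ± 0.48, adjusted p = 0.000599). *Gins3*, at 1.89 and 4.39 FPKM on Day 0, had 0 fragments in both libraries of Day 1 and of Day 3, at least 6.05-fold and 4.95-fold lower than Day 0 at the floor of 3 fragments over the day. *Mcm10*, which helps fire the loaded helicase, fell from 16.2 and 14.5 FPKM to 0.525 and 0.598 (-3.39 ± 0.30, adjusted p = 0.000151), and *Cdc45* from 22.5 and 20.2 to 2.14 and 0 (-3.65 ± 0.51, adjusted p = 0.00101).

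*Gins4*, a subunit of the same complex of 4, was the member with the smallest change. It read 19.1 and 22.7 FPKM on Day 0, 10.2 and 6.31 on Day 1, 12.6 and 16.5 by Day 2, and 10.1 and 19.1 on Day 3. The higher Day 3 library reached the lower Day 0 library, so the groups touched, and the difference was -0.55 ± 0.33 (adjusted p = 0.219), after a called fall of -1.27 on Day 1 (adjusted p = 0.0398). *Gins4* was 6.65-fold above *Gins3*, the lowest GINS gene, on Day 0, and 14.6 FPKM on Day 3 when *Gins1* and *Gins3* were listed at 0. *Gins2* moved down once more from Day 1, at 3.14 and 3.77 FPKM, to Day 2, at 0.791 and 0 (-1.73, adjusted p = 0.0378). That call rests on 9 fragments against 1. It was lost in every fit that left out a Day 0 library, a Day 1 library or Day 2 replicate 2, with adjusted p from 0.0739 to 0.2. From Day 0 to Day 3 *Gins2* changed by -2.25 ± 0.35 (adjusted p = 0.00169), which was not called with a pseudocount of 0.1 (adjusted p = 0.0581).

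All 4 genes of primase and polymerase alpha were lower. *Prim1*, the catalytic primase subunit, fell the most on log2(FPKM + 1), with 36.6 and 33.5 FPKM on Day 0, 6.38 and 5.61 on Day 1, 3.75 and 1.96 by Day 2, and 1.79 and 4.09 on Day 3 (-3.26 ± 0.35, adjusted p = 0.000321). *Prim2*, the large primase subunit, fell the least, with 31.3 and 27.8 FPKM, then 11.4 and 10.5, 14.4 and 6.20, and 6.63 and 5.39 (-2.13 ± 0.33, adjusted p = 0.00177). *Pola1*, the polymerase itself, was at 12.1 and 11.1 FPKM on Day 0 and between 0.586 and 1.07 in the 6 later libraries (-2.81 ± 0.30, adjusted p = 0.000308). It kept 6.96% of its Day 0 mean on Day 3, less than the 8.39% of *Prim1*, and led the role with a pseudocount of 0.1 (-3.73 against -3.64). *Pola2*, its accessory subunit, kept 18.8% of its Day 0 mean on Day 3. The repair polymerase *Polb*, set beside it, read 18.6 and 16.6 FPKM on Day 0, against 21.7 and 15.3 on Day 3 (0.05 ± 0.23, adjusted p = 0.88).

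The polymerases of the fork, delta and epsilon, were all 4 lower. *Pole*, the leading-strand polymerase, had 16.8 and 12 FPKM on Day 0, 1.37 and 0.110 on Day 1, 0.806 and 1.26 by Day 2, and 0.386 and 0.586 on Day 3 (-3.36 ± 0.42, adjusted p = 0.000587). *Pold2*, an accessory subunit of polymerase delta, declined in steps instead, with 29.2 and 28.3 FPKM, 16.7 and 13.1, 9.69 and 10.7, and 7.97 and 7.78 (-1.74 ± 0.19, adjusted p = 0.000344), and kept 51.9% of its Day 0 mean on Day 1 and 27.4% on Day 3. *Pold1*, the catalytic subunit, was already at 12.6% on Day 1 and stood at 13.1% on Day 3. *Pole2* differed between the Day 0 libraries themselves, 9.61 and 2.40 FPKM or 25 and 5 fragments. Its fall of -2.28 ± 0.63 (adjusted p = 0.0226) was not called without Day 0 replicate 1 (adjusted p = 0.158), without Day 3 replicate 2 (0.108), with a pseudocount of 0.1 (0.0777) or with quantile normalization (0.0569).

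The sliding clamp and its loader covered the widest range of changes on log2(FPKM + 1). *2810417H13Rik*, the gene that RefSeq names *Pclaf* for the PCNA-associated factor, fell the most of all 44 on that scale. With a pseudocount of 0.1, *Gins1*, listed at 0 on Day 3, fell more (-7.09 against -5.97), as did *Tk1* (-6.22). *2810417H13Rik* read 93.1 and 83.3 FPKM on Day 0, 2.73 and 0.983 on Day 1, 0.688 and 0.629 by Day 2, and 1.92 and 0.875 on Day 3. The Day 3 level was 1.61% of that of Day 0 (exact 95% counting interval 0.645 to 3.34, from 585 and 7 fragments), and the change was -5.25 ± 0.37 (adjusted p = 7.7e-05). The gene lies at chr9:65890237-65903266 of GRCm38 in GENCODE M21, on the plus strand.

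*Pcna*, which that factor binds, stayed the most abundant member on every day. It had 182 and 192 FPKM on Day 0, 48.5 and 39.7 on Day 1, 63.2 and 60.8 by Day 2, and 64.0 and 82.8 on Day 3. All 6 later libraries lay well under Day 0, and the change was -2.07 ± 0.16 on Day 1 and -1.35 ± 0.16 on Day 3 (adjusted p = 0.000748 and 0.000501). From 649 fragments on Day 0 and 188 on Day 3, 39.0% remained (exact 95% counting interval 33.0 to 46.0). The share of *Pcna* in the summed FPKM of the members was 11.2% and 12.7% on Day 0, then 23.4% and 27.2% on Day 3.

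The clamp loader genes *Rfc1* to *Rfc5* were all lower on Day 3. *Rfc1*, the large subunit, changed the least of them, with 25.4 and 24.3 FPKM on Day 0, 10.9 and 10.1 on Day 1, 11.3 and 9.87 by Day 2, and 15.0 and 11.3 on Day 3 (-0.89 ± 0.20, adjusted p = 0.00954). *Rfc3* changed the most, with 28.4 and 25.5 FPKM, then 4.70 and 8.37, 2.70 and 1.85, and 6.04 and 0 (-3.40 ± 0.76, adjusted p = 0.00891), and its Day 3 libraries lay far apart. The calls of *Rfc1* and *Rfc4* were lost in some fits with 1 library left out, which leaves 1 library on that day. *Rfc1* was not called without Day 0 replicate 1 (log2 change -0.857), Day 0 replicate 2 (-0.916) or Day 3 replicate 2 (-0.697). *Rfc4* was not called without Day 0 replicate 1 (-2.02) or Day 3 replicate 2 (-1.92). *Rfc2*, *Rfc4* and *Rfc5* kept 27.6%, 14.9% and 14.2% of their Day 0 means. They share exon bases with *Lat2*, *Eif4a2* and *Wsb2* on the opposite strand.

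The single-strand binding protein RPA is a complex of 3 subunits, and its genes stood at mean levels of 28.1 to 37.9 FPKM on Day 0. *Rpa2* read 32.9 and 23.3 FPKM on Day 0, 2.29 and 2.19 on Day 1, 3.23 and 4.64 by Day 2, and 3.09 and 7.03 on Day 3 (-2.33 ± 0.36, adjusted p = 0.00176). *Rpa1*, which holds most of the DNA-binding surface, read 41.8 and 34.0 FPKM, 8.31 and 11.6, 8.36 and 12.8, and 18.1 and 27.4. It thus had the lowest values on Day 1 and Day 2 and intermediate ones on Day 3, still under both Day 0 libraries. After a called fall on Day 1 (-1.84 ± 0.28, adjusted p = 0.00428), 58.6% remained on Day 3 (exact 95% counting interval 47.7 to 71.7) against 26.0% on Day 1 (20.0 to 33.5), but neither the Day 3 difference from Day 0 (-0.73 ± 0.28, adjusted p = 0.0735) nor the step from Day 2 to Day 3 (1.03, adjusted p = 0.151) was called. With the replicate number as a block the Day 3 difference passed (adjusted p = 0.0396).

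*Rpa3*, the smallest subunit, read 37.8 and 29.4 FPKM on Day 0, 20.4 and 15.9 on Day 1, 20.6 and 12.9 by Day 2, and 10.1 and 19.6 on Day 3 (-1.18 ± 0.33, adjusted p = 0.0234). It was not called without Day 0 replicate 1 (adjusted p = 0.128), Day 0 replicate 2 (0.0564) or Day 3 replicate 1 (0.112), nor with median ratio scaling (0.0765).

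Okazaki fragments, the short pieces of the lagging strand, are trimmed by FEN1 and joined by DNA ligase 1. *Lig1* read 40.6 and 41.6 FPKM on Day 0, 1.58 and 2.02 on Day 1, 3.72 and 3.89 by Day 2, and 2.07 and 5.06 on Day 3 (-3.29 ± 0.34, adjusted p = 0.000251). *Fen1* read 32.3 and 25.4 FPKM, 6.60 and 5.63, 8.19 and 6.76, and 10.0 and 12.2 (-1.30 ± 0.23, adjusted p = 0.00286). Both were under Day 0 in every later library, with *Lig1* at 8.68% and *Fen1* at 38.5% of the Day 0 mean on Day 3. *Lig3*, the ligase of base excision and mitochondrial repair, had 11.4 and 13.5 FPKM on Day 0, against 11.9 and 12.8 on Day 3 (-0.0029 ± 0.19, adjusted p = 0.994).

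All 5 nucleotide supply genes were lower. *Rrm2*, the S phase subunit of ribonucleotide reductase, read 109 and 96.1 FPKM on Day 0, 3.37 and 3.59 on Day 1, 2.26 and 1.38 by Day 2, and 4.63 and 3.83 on Day 3 (-4.31 ± 0.25, adjusted p = 4.8e-05). *Rrm1*, the large subunit that every form of the enzyme needs, read 110 and 91.5 FPKM, 14.3 and 10.4, 8.83 and 9.21, and 11.5 and 10.7 (-3.07 ± 0.20, adjusted p = 6.3e-05). The subunits stood level on Day 0, and *Rrm1* was above *Rrm2* in each of the 6 later libraries. *Rrm2b*, which encodes the alternative small subunit known from non-dividing cells and the p53 response, moved the opposite way, with 5.49 and 6.14 FPKM on Day 0, 6.50 and 8.32 on Day 1, 11.6 and 12 by Day 2, and 14.8 and 17.3 on Day 3 (1.32 ± 0.22, adjusted p = 0.00224). On Day 0 *Rrm2* was the higher of the small-subunit genes and from Day 1 on *Rrm2b* was, in all 6 libraries.

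*Tk1*, the cytosolic thymidine kinase of S phase, read 34.8 and 25.6 FPKM on Day 0, 1.22 and 0 on Day 1, 1.84 and 0 by Day 2, and 0 and 1.52 on Day 3 (-4.28 ± 0.64, adjusted p = 0.00143). *Tyms*, thymidylate synthase, changed the least of the role, with 15.4 and 14.4 FPKM, 4.26 and 2.88, 2.38 and 1.58, and 2.15 and 1.68 (-2.45 ± 0.30, adjusted p = 0.000523). *Tk2*, the mitochondrial thymidine kinase, had 5.98 and 7.26 FPKM on Day 0, against 5.91 and 6.73 on Day 3 (-0.05 ± 0.26, adjusted p = 0.883). *Dut*, which removes dUTP, kept 10.8% of its Day 0 mean.

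The chromatin assembly genes *Chaf1a* and *Chaf1b*, subunits of the factor that places histones behind the fork, were both lower. *Chaf1a* read 26.2 and 23.9 FPKM on Day 0, 3.20 and 0.946 on Day 1, 1.74 and 2.50 by Day 2, and 3.33 and 1.89 on Day 3 (-2.88 ± 0.41, adjusted p = 0.00107). *Chaf1b* read 17.4 and 19.6 FPKM, 1.28 and 0.409, 2.58 and 0.393, and 0.959 and 1.09 (-3.27 ± 0.47, adjusted p = 0.00115). The exons of *Chaf1a* share 4648 bases with *Ubxn6* on the opposite strand, which was at 20.3 FPKM on Day 0 and 22.0 on Day 3.

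**Figure D2:**
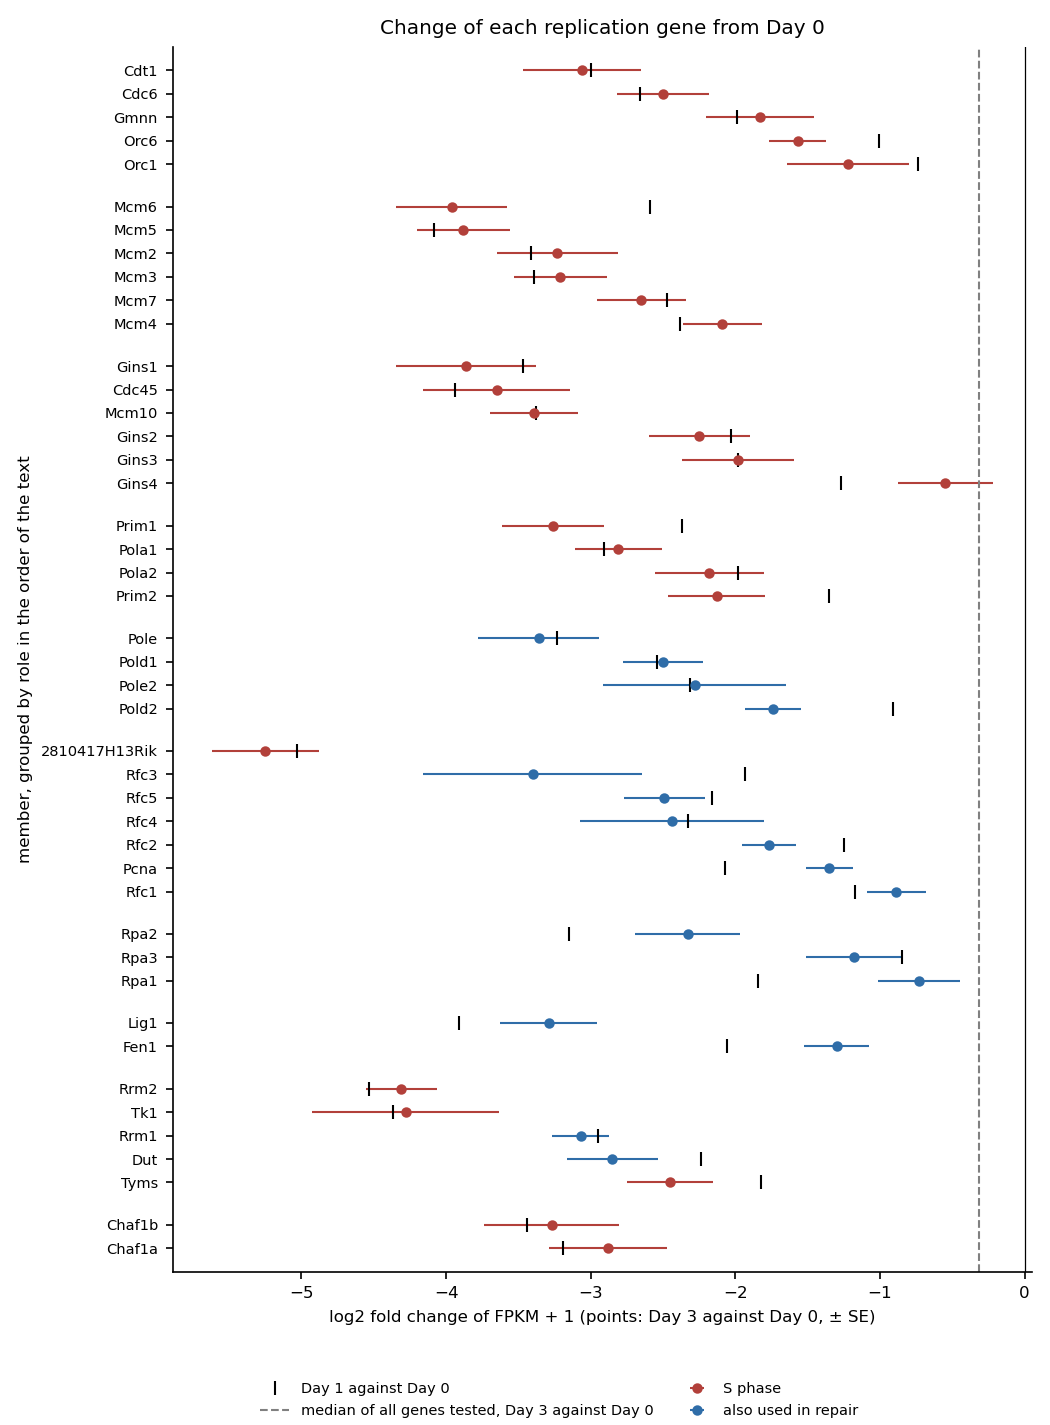
Log2 fold change of FPKM + 1 of each member, grouped by role; points with SE bars are Day 3 against Day 0, red for S phase genes and blue for those also used in repair, ticks are Day 1 against Day 0, and the dashed line is the median of all genes tested (-0.31). All points lie left of 0, from -5.25 for *2810417H13Rik* to -0.55 for *Gins4*.

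The median change was -2.88 for the 27 S phase genes, 25 of them lower, and -2.33 for the 17 genes also used in repair, 16 of them lower. Of the 27 S phase genes 16 were under 10% of their Day 0 mean on Day 3, and of the 17 others 3 were. Among the 12208 genes tested 497 were. The difference of the medians was -0.55, with -0.34 in replicate 1 and -0.89 in replicate 2 (SD 0.39). With *Chaf1a*, *Chaf1b*, *Rrm2* and *2810417H13Rik* counted among the genes also used in repair it was -0.16. The difference between the classes was not tested. Summed FPKM of the S phase genes went from 890 and 840 on Day 0 to 97.1 and 96.4 on Day 3, and that of the others from 731 and 667 to 177 and 208. Such sums weigh abundant genes most. *Rrm2* alone gave 109 and 96.1 FPKM of the S phase sums on Day 0, and *Pcna* 64.0 and 82.8 of the others on Day 3.

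Each gene of 8 pairs with a related role was compared with its partner by the slope of their log2 difference on day, tested over every arrangement of the libraries on the days and adjusted over the pairs. The pairs were chosen with earlier results of these data known, so the p-values of their slopes give no independent support. *Rfc3* and *Rfc1* had the largest and the smallest fall of the clamp loader genes, as *Rpa2* and *Rpa1* had of RPA. Every slope was negative, which means that the first gene of each pair went down relative to the second along the straight line fitted over the days. The slope of *Rrm2* against *Rrm2b* was -1.82 a day, with an exact permutation p of 0.00952 and an adjusted p of 0.0444, from a mean difference of 3.92 on Day 0 to -1.71 on Day 3. The slope of *Rfc3* against *Rfc1* was -0.87 a day, with an exact permutation p of 0.0111 and an adjusted p of 0.0444. Both missed the threshold with arrangements kept within replicate numbers, as a block (adjusted p = 0.0833 each), and without either Day 0 library (0.133), Day 1 replicate 1 (0.072), Day 2 replicate 1 (0.0974), Day 2 replicate 2 (0.102) or Day 3 replicate 2 (0.0889 for *Rrm2* against *Rrm2b* and 0.108 for *Rfc3* against *Rfc1*).

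The other 6 slopes did not pass after adjustment. They were -1.23 per day for *Tk1* against *Tk2* and -0.43 for *Rpa2* against *Rpa1* (adjusted p = 0.0667 each, exact permutation test), both 0.0381 without Day 1 replicate 2. For *Pola1* against *Polb* the slope was -0.81 (adjusted p = 0.0889), for *Lig1* against *Lig3* -0.90 (0.0998), for *Orc1* against *Orc2* -0.36 (0.0974) and for *Rrm2* against *Rrm1* -0.40 (0.119), in the same exact permutation test. In 5 of these 6 pairs, all but *Orc1* against *Orc2*, both Day 0 differences lay above all 6 later ones. *Lig1* minus *Lig3* was 1.75 and 1.55 on Day 0, -2.44 and -2.34 by Day 1, and -2.07 and -1.19 by Day 3.

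**Figure D3:**
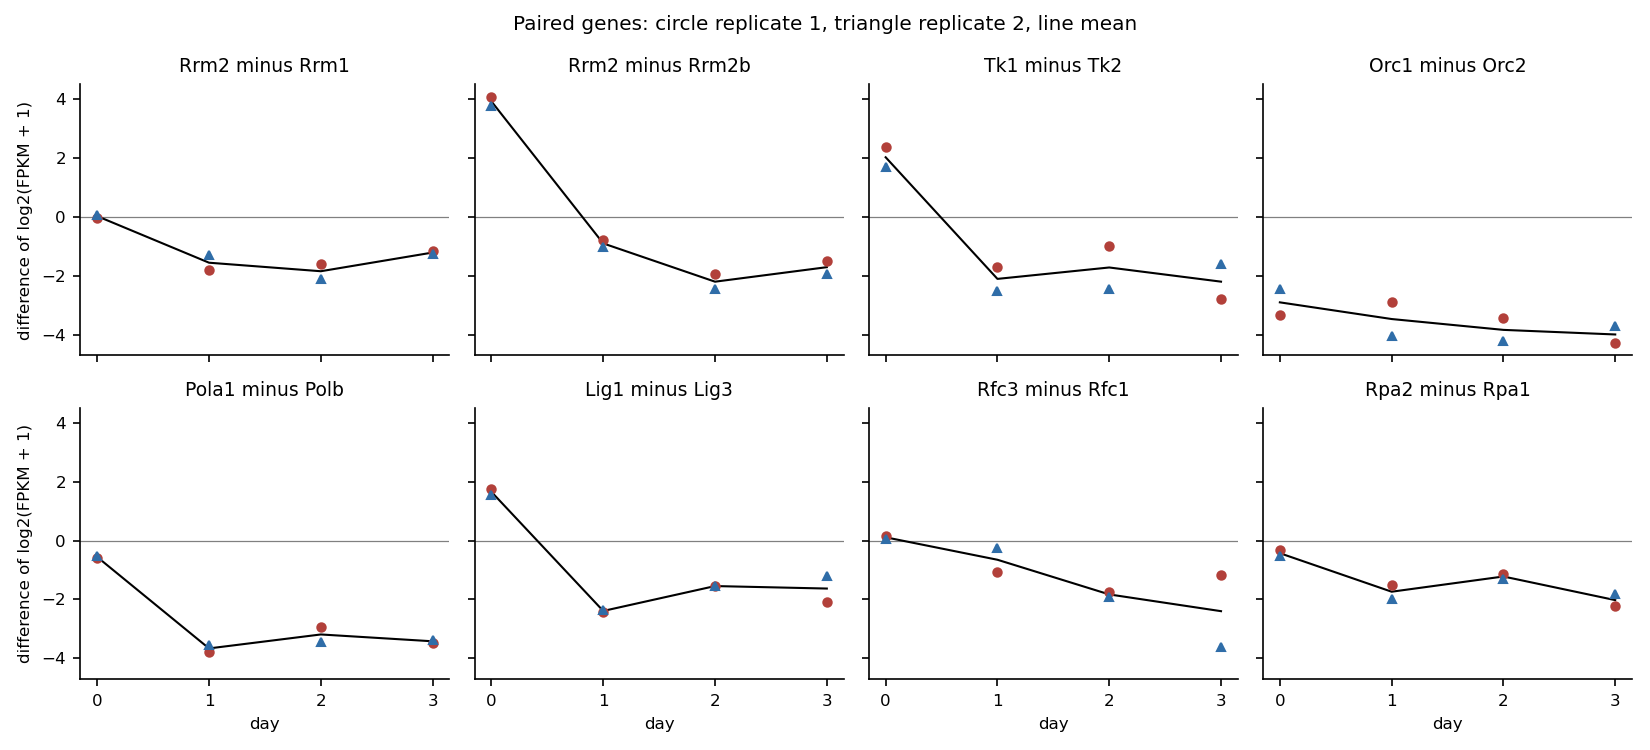
Difference of log2(FPKM + 1) between the genes of each of the 8 pairs, by day; circles are replicate 1, triangles replicate 2 and lines the mean of both. *Rrm2* minus *Rrm2b* crosses 0 between Day 0 (3.92) and Day 1 (-0.90), and *Rfc3* minus *Rfc1* spreads on Day 3 between -1.18 and -3.62.

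Genes around the 44 were read from lists of the same pathways. Of 31 other origin and fork factors, 22 were lower on Day 3 and none higher (median -1.80), against 26.3% and 12% of all genes tested. The largest falls were those of *Uhrf1*, which guides maintenance methylation, from a mean of 49.8 FPKM on Day 0 to 2.55 on Day 3 (-3.85 ± 0.34, adjusted p = 0.000142), and of the fork checkpoint mediator *Clspn*, from 18.5 to 0.578 FPKM (-3.62 ± 0.50, adjusted p = 0.000917).

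Of 34 other nucleotide synthesis genes, 26 were lower and 2 higher (median -1.40), against 26.3% and 12% of all genes tested. *Shmt1*, a source of one-carbon units for thymidylate, fell from 14.2 to 0.253 FPKM (-3.63 ± 0.42, adjusted p = 0.000435) and the deaminase *Dctd* from 7.54 to 0.281 FPKM (-2.74 ± 0.39, adjusted p = 0.00115). The genes that rose were *Rrm2b*, described above, and *Dguok*, the mitochondrial deoxyguanosine kinase, from 5.66 to 15.0 FPKM (1.25 ± 0.31, adjusted p = 0.0144).

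Of 36 genes tested whose main work is excision, mismatch or end-joining repair or damage signalling, 13 were lower and 1 higher, against 26.3% and 12% of all genes, with a median change of -0.40 close to the -0.31 of all genes. *Ung*, which removes uracil from DNA, fell from 8.16 to 1.03 FPKM (-2.18 ± 0.46, adjusted p = 0.00708) and the endonuclease *Apex1* from 48.2 to 12.8 FPKM (-1.97 ± 0.43, adjusted p = 0.00806), while *Dclre1c*, the end-joining nuclease Artemis, rose from 5.67 to 12.1 FPKM (0.97 ± 0.29, adjusted p = 0.031). Of 19 homologous recombination genes, which act on replicated DNA, 15 were lower and none higher (median -1.69), against the same 26.3% and 12%. The largest falls were those of *Rad54l* (-3.34 ± 0.40, adjusted p = 0.000483) and *Rad51ap1* (-3.22 ± 0.42, adjusted p = 0.000746). The difference between these lists was not tested.

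Of 19 genes of the E2F and pocket protein network, 11 were lower and none higher (median -1.19), against 26.3% and 12% of all genes tested. At an unadjusted p under 0.05 limma gave 13 lower and 0 higher in this list. The counts were 24 and 0 among the origin and fork factors, and 16 and 0 in homologous recombination. Of the 12208 genes tested, 4075 were lower and 1789 higher at that cut. *Foxm1*, a driver of the later G2 and M phase genes, fell from 51.2 to 1.65 FPKM (-4.31 ± 0.40, adjusted p = 0.000172) and the repressor *E2f7* from 13 to 0.465 FPKM (-3.28 ± 0.40, adjusted p = 0.000559). The median of the 6 proliferation markers was -4.72, and all 6 were lower, led by *Ccnb1*, the mitotic cyclin B1, from 132 to 2.29 FPKM (-5.35 ± 0.48, adjusted p = 0.000153).

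**Figure D4:**
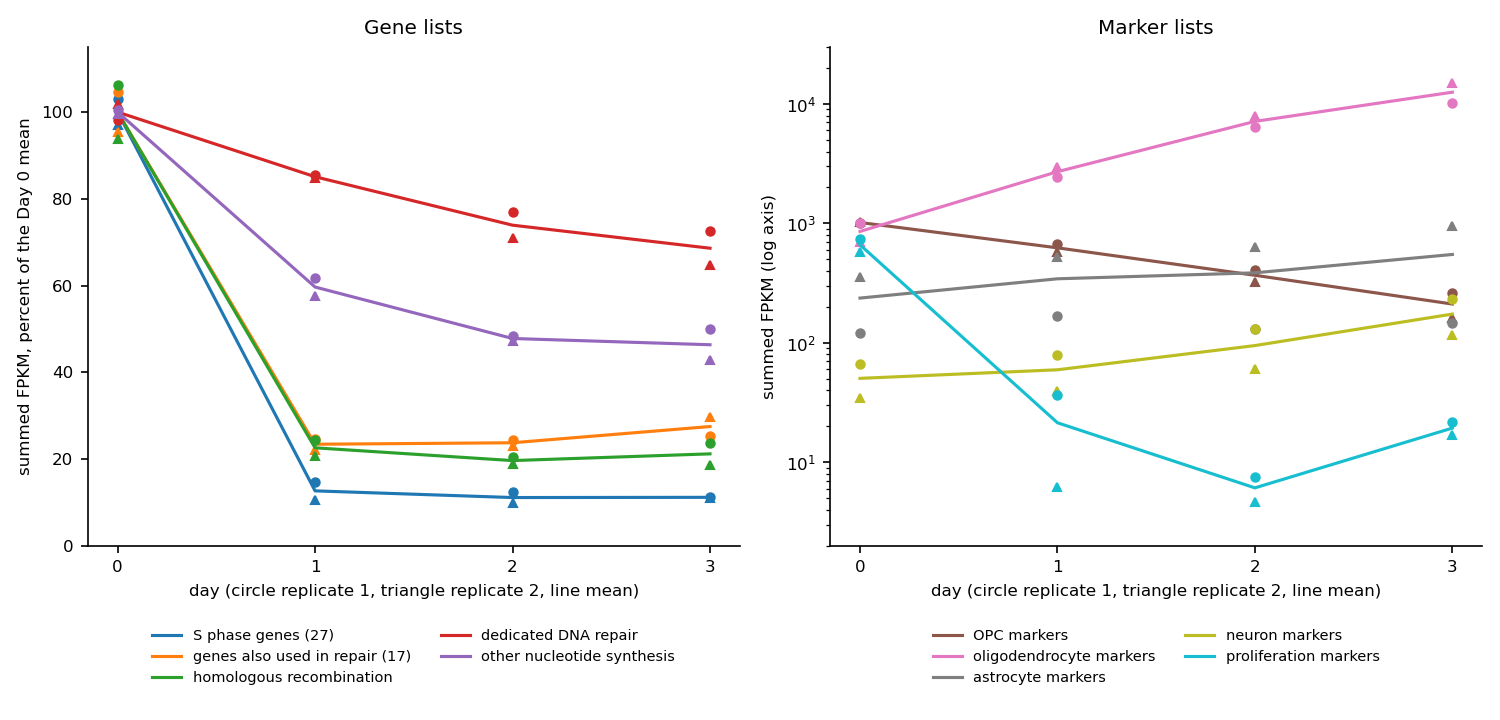
Left, summed FPKM of 5 gene lists in each library as percent of the Day 0 mean; right, summed FPKM of 5 marker lists on a log axis; circles are replicate 1, triangles replicate 2 and lines the mean. The S phase genes drop furthest, from 890 and 840 FPKM to 97.1 and 96.4 on Day 3, dedicated repair genes the least, from 650 to 676 FPKM to 428 to 480, and astrocyte markers differ by replicate on every day.

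No member was called lower or higher in replicate 2 than in replicate 1 by limma with the day in the fit. Of all genes 0.369% were called lower and 0.68% higher. At an unadjusted p under 0.05 in that fit only *Mcm7* and *Rfc4* were lower and none higher. The same cut gave 879 lower and 568 higher among the 12208 genes tested. Replicate 2 was the lower one for 34 of the 44 members, with a median difference of -0.12 against -0.05 for all genes. *Rfc4* had the largest such difference (-1.13, adjusted p = 0.0714).

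Counting sets the limit for the low values. Fragments could be recovered as whole numbers, within a tolerance of 0.03, for 34 of the 44 members. After Day 0, 14 of these 34 had a library at or under 3 fragments and 8 had a library at 0, and in such libraries a further fall was not detectable at this depth. The intervals and the limit of 3 fragments cover counting error only. Exons of 14 members overlap another gene in GENCODE M21, so their values are uncertain: *Orc1*, *Orc6*, *Mcm7*, *Cdc45*, *Gins2*, *Pole*, *Pole2*, *Rfc2*, *Rfc4*, *Rfc5*, *Fen1*, *Lig1*, *Tk1* and *Chaf1a*.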

How the data were processed

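The authors processed paired 75-nt reads of stranded mRNA libraries (MiSeq) with OmicSoft ArrayStudio and deposited FPKM of 23427 genes in 8 libraries, on mm10 per the submitters' processing notes. The aligner, gene model and use of strand in counting are not given in the sources used here. The methods name DESeq2 for the authors' differential expression, and DESeq2 was not used here, since it needs counts.

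The 12208 genes that reached an FPKM of 1 in 2 or more libraries were tested on log2(FPKM + 1), which understates changes of low genes, with limma 3.58.1 in R 4.3.3 (eBayes with a trend, day as factor, all libraries), checked on simulated data. The pseudocount, filter, scaling, trend, replicate block and libraries were varied. Pair slopes used a two-sided exact permutation over every arrangement of libraries on days, with a smallest p of 0.000794. Depth came from the steps between low FPKM values of 207 genes, and of several promoter windows the first listed was used (Python 3.11.15).

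The members, lists, pairs and motifs were chosen with earlier results of these data known. Per-library values are given for the largest and smallest change of each role, members not called, *Pcna*, *Rrm2*, *Mcm2*, *2810417H13Rik* and the genes of each pair, and means for up to 2 falls and 2 rises of a list. Other genes given values were chosen after these were seen. Replicate numbers come from the labels. Libraries with the same number deviated together (r of 0.16 to 0.29 between days), so the replicate block was read as a pairing, in which *Rpa1* passed on Day 3 (-0.73).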

Additional observations from a re-analysis of the deposited data

How the results depend on the processing

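The count of members lower on Day 3 than on Day 0 (41) lay between 38 and 42 under the 9 alternatives of scale, filter, scaling, trend, block and days used, and between 34 and 41 with 1 library left out, the lowest without Day 0 replicate 1. With genes required to reach an FPKM of 10 in 1 library, 40 members were tested, and without a Day 0 library 41. In the latter case *Cdc6*, *Mcm10* and *Gins3* missed the filter. The count of members lower on Day 1 than on Day 0 lay between 36 and 41 under the 9 alternatives, with 36 at a pseudocount of 0.1. For Day 1 against Day 0 (41) leaving out 1 library gave 28 to 41, with 28 without either Day 0 library. The count of members lower from Day 1 to Day 2 (1, *Gins2*) was 0 with a pseudocount of 0.1, with no filter, with quantile normalization, with eBayes without a trend and with only the days compared, and 0 to 1 with 1 library left out. From Day 2 to Day 3 and between replicates 0 members were called in either direction under each of these alternatives that could be run. The difference of class medians was -0.163 with 4 genes counted as also used in repair, and -0.939 to -0.31 with 1 library left out.

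The adjusted p of the slope of *Rrm2* against *Rrm2b* was 0.0833 with the replicate block and 0.127 on ranks of FPKM, and that of *Rfc3* against *Rfc1* 0.0833 with the replicate block and 0.633 on ranks. With 1 library left out they ranged from 0.019 to 0.133 and from 0.0127 to 0.133. Those of *Tk1* against *Tk2* and of *Rpa2* against *Rpa1* both ranged from 0.0381 to 0.2. On ranks the slope of *Rrm2* against *Rrm1* reversed (adjusted p = 0.778). The cause was not tested. The replicate block changed no call of a member from Day 0 to Day 3 other than that of *Rpa1*.

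With 2 libraries a day and 960000 to 1530000 fragments a library, values near 1 FPKM rest on few fragments. Strand and gene model are not given, so the 14 members whose exons overlap another gene are uncertain.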
